A study of Homo sapiens with 8 samples.

Results

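The hypoxia response and glycolysis genes are 44 human genes chosen by name: the factors and enzymes that sense oxygen, target genes of the hypoxia-inducible factors, and the enzymes that carry glucose to pyruvate and decide its fate. Of these, 43 had a probe set with 1 gene symbol, among 19775 genes measured in the same way, and the level of each is that of its brightest such probe set over the 8 arrays. CA9, the carbonic anhydrase most often used as a hypoxia marker, was not analysed here.

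All cells descended from PC3, a cell line established from a human prostate cancer, and were grown in RPMI medium with serum (5% per the labels, while the study's methods give another concentration). PC3-Epi, the epithelial line, carries a luciferase vector and came from repeated picking of colonies, so it is itself a selected population, and was measured on 1 array. The mesenchymal lines PC3-EMT1, -EMT12 and -EMT14 were isolated after PC3-Epi had been cultured with human macrophages and have 1 array each, so each is 1 selected population and not a repeat culture. PC3-EMT1 and PC3-EMT14 were also measured after lentiviral transduction with a scrambled control shRNA (Scr) or with sh4, an shRNA against ZEB1, a repressor of epithelial genes, giving 4 transduced arrays. The labels name no drug and no change of oxygen in any group. The p-values therefore measure the spread between these lines, PC3-Epi has no spread of its own, and in RNA of a whole culture fewer expressing cells and less RNA per cell cannot be told apart.

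Cells sense oxygen through prolyl hydroxylases of the EGLN family, which mark the alpha subunits of the hypoxia-inducible factors (HIF1A and EPAS1) for destruction while oxygen is present. When oxygen is low the subunits escape, pair with ARNT and bind short DNA elements with the core ACGTG or GCGTG, which raises genes for blood vessel growth, glucose uptake, glycolysis and the diversion of pyruvate away from mitochondria. The regulation of the alpha subunits is largely at the protein level, which these arrays of RNA do not read.

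To show what the elements look like in these genes, both cores were searched on both strands in the 250 bases before each annotated start of 39 of the 43 genes (RefSeq, GRCh38.p14). Of their 66 start windows, 63.6% held at least 1 match, against 54.5% of the windows of all genes tested in the mesenchymal lines and 43.2% of all 35116 windows in the table. The share was 75% of 20 windows for the members that were lower in the mesenchymal lines and 75% of 4 for those that were higher. It was 57.1% of 42 for those that did not pass the test. Windows of the same gene were counted apart, and most of those of HK1 and PFKM, which did not pass, held no match. By gene, 12 of 13 lower members, 3 of 4 higher ones and 18 of 22 that did not pass had a match. No difference between these shares was tested. Stretches of 100 bases are printed for 4 members that were lower in the mesenchymal lines (EPAS1, EGLN1, PDK3 and ANKRD37), for 3 abundant glycolytic enzymes that did not pass the test (LDHA, PGK1 and ENO1) and for ENO2, which was higher. They run 5′ to 3′ on the strand of the gene, with the matches in capitals. A CACGTG is read as a match on each strand, and a capital CACGC or CACGT is the reverse strand of a core.
EPAS1, chr2:46297240-46297339 (plus strand): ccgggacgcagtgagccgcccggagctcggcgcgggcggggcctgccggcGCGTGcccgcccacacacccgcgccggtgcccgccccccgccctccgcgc
EGLN1, chr1:231422288-231422387 (minus strand): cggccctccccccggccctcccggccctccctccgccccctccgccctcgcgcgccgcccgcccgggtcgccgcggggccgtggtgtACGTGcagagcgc
PDK3, chrX:24465155-24465254 (plus strand): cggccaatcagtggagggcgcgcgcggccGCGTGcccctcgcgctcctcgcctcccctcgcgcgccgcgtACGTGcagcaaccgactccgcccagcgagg
ANKRD37, chr4:185396636-185396735 (plus strand): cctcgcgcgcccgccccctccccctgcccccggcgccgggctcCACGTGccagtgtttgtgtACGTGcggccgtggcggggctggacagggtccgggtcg
LDHA, chr11:18394395-18394494 (plus strand): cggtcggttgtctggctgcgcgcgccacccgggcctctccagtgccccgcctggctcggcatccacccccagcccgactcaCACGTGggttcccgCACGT
PGK1, chrX:78103999-78104098 (plus strand): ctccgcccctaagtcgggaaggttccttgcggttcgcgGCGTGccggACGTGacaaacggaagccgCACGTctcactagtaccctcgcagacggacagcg
ENO1, chr1:8878754-8878853 (minus strand): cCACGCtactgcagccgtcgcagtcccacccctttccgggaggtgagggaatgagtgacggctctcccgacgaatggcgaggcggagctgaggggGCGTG
ENO2, chr12:6914412-6914511 (plus strand): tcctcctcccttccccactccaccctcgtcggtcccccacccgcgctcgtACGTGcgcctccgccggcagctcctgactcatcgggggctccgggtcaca
Matches stood before the genes that were lower, before those that did not pass the test and before ENO2, and none was found in the window of EGLN3. A match of 5 letters is a description of the sequence, not a site of binding.

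The values are log2 RMA intensities, so a difference of 1 is 2-fold. The transduced arrays lay on another scale (array medians 6.19 to 6.23) than the untransduced ones (4.33 to 4.35), and every difference below is taken within one of the sets. One alternative fit, named where it is used, also took its estimate of spread from both. The highest bacterial control probe set, which no human RNA should light, read 4.56 and 6.00 in them. The labels held on the defining markers: CDH1 (E-cadherin) read 11.31 in PC3-Epi and 3.07 to 4.00 in the mesenchymal lines, and ZEB1 read 3.08 and 6.50 to 7.11. The 14 macrophage markers measured had medians of 3.45 in PC3-Epi and 3.55 to 3.68 in the mesenchymal lines, with 2 of 14 above the highest control on each of these arrays.

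The comparison of the mesenchymal lines with PC3-Epi asks how these genes stand after the change of state. The oxygen sensing genes, a set of HIF targets and the 2 pyruvate dehydrogenase kinases on the list were lower, by up to 4.99-fold for EPAS1. Most of the abundant glycolytic enzymes lay close to PC3-Epi, and ENO2, PKM, PLOD1 and CA12 were higher. Of 42 members tested, 15 fell, 4 rose and 23 did not pass limma at an adjusted p of 0.05. Over all 11921 genes tested, 15.4% were called lower and 13.9% higher, so 35.7% of the members against 15.4% fell and 9.52% against 13.9% rose. Because the members were chosen with earlier results of these data known, these shares describe the list and are no test of it. Of 51 other genes of these pathways tested, 15.7% fell and 11.8% rose. The median difference was −0.40 over the members and 0.07 over all genes tested. At 2-fold in every line, 6 members were lower (EPAS1, EGLN1, EGLN3, NDRG1, PDK1 and PDK3) and 0 higher, where 4.9% and 2.95% of all genes tested were. EGLN3 is in both counts of lower members, although it reached log2 5, the limit for testing, only in PC3-Epi.

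**Figure D1:**
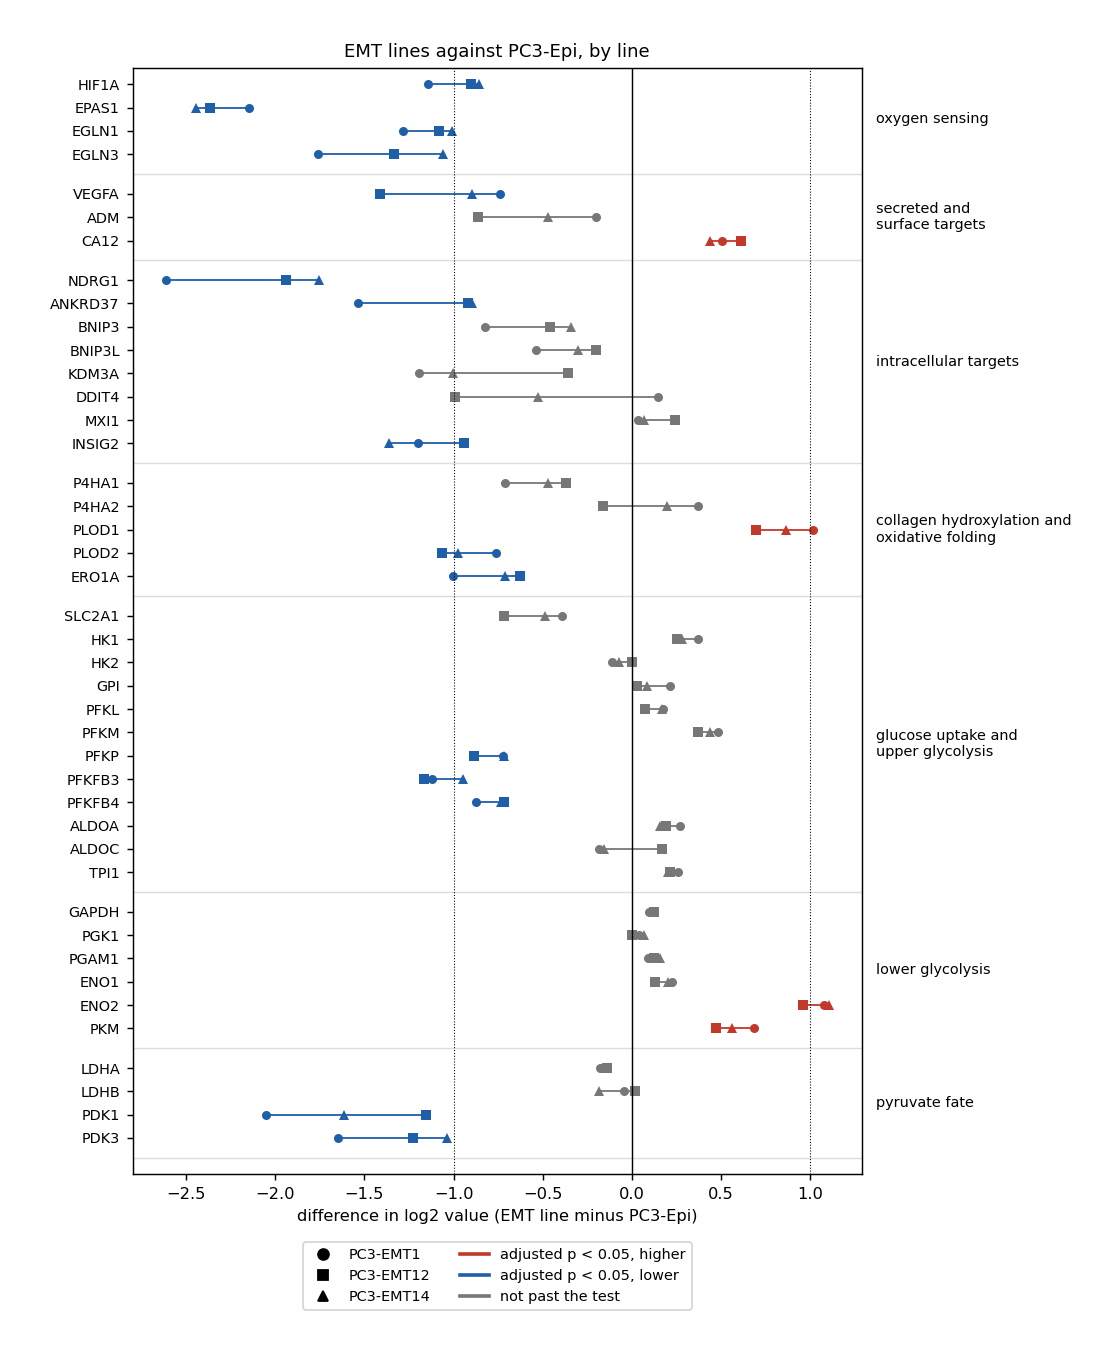
Difference in log2 value from PC3-Epi (x axis) for each of the 42 members tested (y axis, by role) in PC3-EMT1, -EMT12 and -EMT14, with a line joining the lowest and highest; colours give the limma call and dotted lines mark 2-fold. All 4 oxygen sensing genes lie to the left of 0 in every line, and all 6 genes of lower glycolysis lie to the right of it on average.

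Among the oxygen sensing genes, 4 of 4 fell, where 15.4% of all genes tested did. The count includes EGLN3, which could only come out as lower, so it is no measure against that share. HIF1A, the widely expressed alpha subunit, read 12.60 in PC3-Epi and 11.45, 11.69 and 11.74 in PC3-EMT1, -EMT12 and -EMT14, a difference of −0.97 ± 0.17 (SE, 3 lines against 1 array; limma adjusted p = 0.0132). EPAS1, the alpha subunit also called HIF2A, read 10.98 and 8.83, 8.61 and 8.53, a difference of −2.32 ± 0.17 (adjusted p = 0.00102). For both genes the mesenchymal lines lay closer to each other than to the 1 array of PC3-Epi.

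The 2 hydroxylases on the list fell with them. EGLN1, the main oxygen sensor of most cells, read 9.13 in PC3-Epi and 7.84, 8.05 and 8.12 in the mesenchymal lines (−1.12 ± 0.17, adjusted p = 0.00818). EGLN3, a hydroxylase that HIF itself induces, read 5.43 and 3.67, 4.10 and 4.38 (−1.39 ± 0.27, adjusted p = 0.018). The EGLN3 values of the 3 mesenchymal lines lay under the highest control of 4.56, so the size of its difference rests on values at background. EGLN3 reached log2 5, the limit for testing, only in PC3-Epi, so it could only come out as lower and its call is no support. EGLN1 also had 2 dimmer probe sets at −0.63 and −0.52, neither past the test, and a further dim one at 0.01.

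Of the secreted and surface targets, VEGFA fell, CA12 rose and ADM did not pass the test. VEGFA, the growth factor of blood vessels, read 9.75 in PC3-Epi and 9.01, 8.34 and 8.85 in the mesenchymal lines (−1.02 ± 0.27, adjusted p = 0.0402). Its call was lost without PC3-EMT14 (−1.07, adjusted p = 0.05002) and when its 4 probe sets were averaged (−0.62, adjusted p = 0.0874), with every line still below PC3-Epi. CA12, a carbonic anhydrase of the cell surface, read 8.65 and 9.16, 9.27 and 9.09 (0.52 ± 0.15, adjusted p = 0.0459), and its 3 mesenchymal values lay above PC3-Epi. The CA12 call was lost when any 1 line was left out (0.53, 0.47 and 0.56 without PC3-EMT1, -EMT12 and -EMT14, adjusted p = 0.0745, 0.0505 and 0.127). ADM, the vasodilator peptide adrenomedullin, differed by −0.51 ± 0.26 (adjusted p = 0.183).

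Of the 8 intracellular targets, 3 fell and 0 rose (37.5% and 0%, against 15.4% and 13.9% of all genes tested). NDRG1, a stress-responsive gene long used to mark hypoxia, read 12.14 in PC3-Epi and 9.52, 10.20 and 10.39 in PC3-EMT1, -EMT12 and -EMT14 (−2.10 ± 0.33, adjusted p = 0.00997). INSIG2, which holds back sterol synthesis, read 7.98 and 6.78, 7.04 and 6.62 (−1.17 ± 0.20, adjusted p = 0.0119). ANKRD37, a small ankyrin repeat gene, read 8.30 and 6.76, 7.37 and 7.40 (−1.12 ± 0.28, adjusted p = 0.0332). The ANKRD37 call was lost when its bright probe set was averaged with a second one at background (−0.37, adjusted p = 0.136).

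The other 5 intracellular targets did not pass. BNIP3 and BNIP3L, which mark mitochondria for removal, differed by −0.54 ± 0.22 and −0.35 ± 0.18 and lay below PC3-Epi in all 3 lines. KDM3A, a histone demethylase, read 9.0 in PC3-Epi and 7.80, 8.63 and 7.99, so PC3-EMT12 stood nearer to PC3-Epi than the others. Its difference was −0.85 ± 0.32 (adjusted p = 0.0958), and −1.10 (adjusted p = 0.0139) without PC3-EMT12. DDIT4, an inhibitor of mTORC1 signalling, read 7.78 and 7.92, 6.78 and 7.25, one line above PC3-Epi and the others below. MXI1, an antagonist of MYC, differed by 0.11 ± 0.15.

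**Figure D2:**
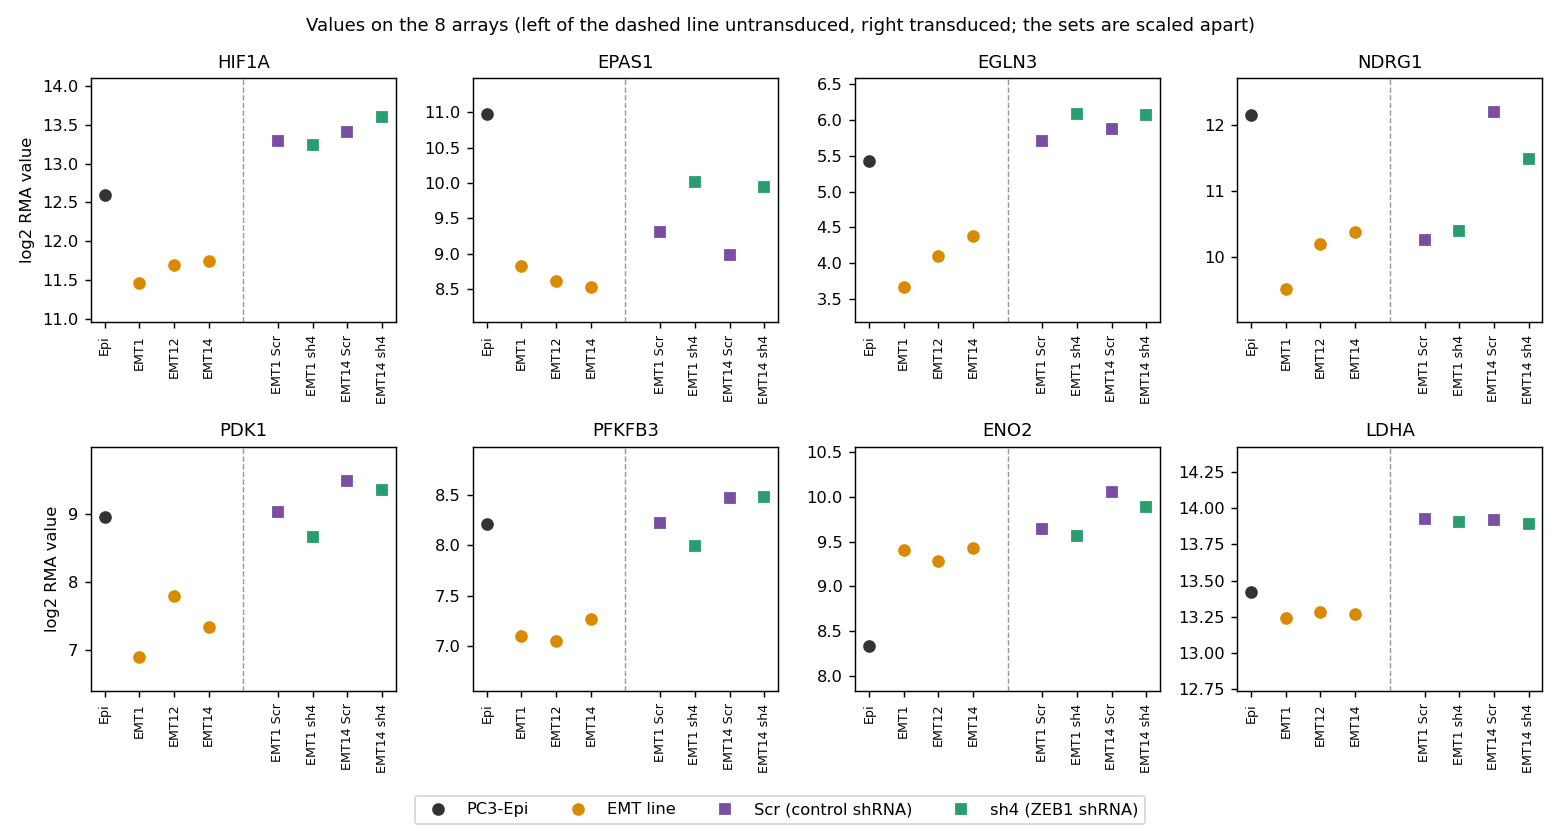
Log2 RMA value (y axis) of 8 members on the 8 arrays (x axis), 1 point for each array; the dashed line separates the untransduced from the transduced arrays, which are scaled apart. HIF1A, EPAS1, EGLN3, NDRG1, PDK1 and PFKFB3 are higher in PC3-Epi than in every mesenchymal line, ENO2 is lower, and the LDHA values of each set lie close together.

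Enzymes that modify collagen and fold secreted proteins went both ways. PLOD1, a lysyl hydroxylase, rose from 8.36 in PC3-Epi to 9.37, 9.06 and 9.22 in PC3-EMT1, -EMT12 and -EMT14 (0.86 ± 0.17, adjusted p = 0.0186). PLOD2, the lysyl hydroxylase of collagen telopeptides, fell from 10.27 to 9.50, 9.20 and 9.30 (−0.93 ± 0.17, adjusted p = 0.0145). The 2 lysyl hydroxylases thus moved in opposite directions in every line. ERO1A, which makes disulfide bonds in the endoplasmic reticulum, fell from 11.45 to 10.45, 10.82 and 10.74 (−0.78 ± 0.19, adjusted p = 0.0305, and −0.82 with adjusted p = 0.0630 without PC3-EMT14). Its 2 other probe sets gave −1.18 and −1.12. The prolyl hydroxylase subunits P4HA1 and P4HA2 differed by −0.52 ± 0.18 (adjusted p = 0.0779) and 0.13 ± 0.23 (adjusted p = 0.67).

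In glucose uptake and upper glycolysis, 3 of 12 members tested fell, 25% against 15.4% of all genes tested. All of them act at the phosphofructokinase step, the committed step of glycolysis. PFKFB3, a kinase that makes the activator fructose 2,6-bisphosphate, read 8.21 in PC3-Epi and 7.09, 7.05 and 7.27 in the mesenchymal lines (−1.08 ± 0.16, adjusted p = 0.00772). PFKFB4, its relative, read 9.25 and 8.37, 8.53 and 8.52 (−0.78 ± 0.15, adjusted p = 0.0161). PFKP, the platelet form of phosphofructokinase, read 10.27 and 9.55, 9.39 and 9.55 (−0.77 ± 0.15, adjusted p = 0.0167). The 3 mesenchymal values of each gene lay below the 1 array of PC3-Epi, as 44.3% to 46.2% of all genes tested did in any 1 line. PFKFB4 lost its call without PC3-EMT14 (−0.80, adjusted p = 0.0502), and both PFKFB4 and PFKP lost it when averaged with a dim second probe set (−0.37 and −0.40, adjusted p = 0.0869 and 0.0546).

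The muscle and liver forms of phosphofructokinase did not follow PFKP. PFKM read 9.73 in PC3-Epi and 10.21, 10.10 and 10.17 in the mesenchymal lines, a difference of 0.43 ± 0.14 (adjusted p = 0.0659), and PFKL differed by 0.14 ± 0.14. SLC2A1, the main glucose transporter of proliferating cells, read 9.29 and 8.90, 8.57 and 8.80 (−0.53 ± 0.18, adjusted p = 0.0684). SLC2A3, a transporter of high affinity, read 3.30 to 3.74, under the highest control on all 4 arrays, and was not tested. HK1, the housekeeping hexokinase, differed by 0.30 ± 0.14 and HK2, the inducible one, by −0.06 ± 0.14. GPI, ALDOA and TPI1 differed by 0.11, 0.21 and 0.22, and ALDOC, the brain aldolase, by −0.06, with PC3-EMT12 above PC3-Epi and the other lines below.

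All 6 genes of lower glycolysis lay above PC3-Epi on average, and 2 passed the test, where 13.9% of all genes tested were called higher. The median over all genes tested was itself above 0, at 0.07. The place of PGK1 at 0.03 depended on the processing, as it turned to −0.05 with cyclic loess and −0.02 with averaged probe sets. ENO2, the neuronal enolase, read 8.33 in PC3-Epi and 9.41, 9.29 and 9.43 in PC3-EMT1, -EMT12 and -EMT14 (1.05 ± 0.14, adjusted p = 0.00683). PKM, the pyruvate kinase of most tissues, read 11.36 and 12.05, 11.83 and 11.93 (0.57 ± 0.15, adjusted p = 0.0401). The ENO2 values of the lines lay 0.96 to 1.10 above PC3-Epi, and 2 of the 3 lines passed 2-fold. PKM differed by 0.34 with averaged probe sets and by 0.50 with cyclic loess, and was called with neither. The dimmer second probe set of PKM gave 0.10. The PKM call was lost, at 0.52 and 0.58 with adjusted p = 0.0699 and 0.129, without PC3-EMT1 and without PC3-EMT14, and at 0.50 with adjusted p = 0.0540 after quantile normalization.

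The most abundant enzymes stayed near PC3-Epi. GAPDH read 13.55 in PC3-Epi and 13.65, 13.67 and 13.67 in the mesenchymal lines, and LDHA, which turns pyruvate into lactate, read 13.42 and 13.24, 13.28 and 13.27. Differences were 0.12 for GAPDH, 0.03 for PGK1, 0.12 for PGAM1, 0.18 for ENO1, −0.15 for LDHA and −0.07 for LDHB, with 95% half-widths of 0.33 to 0.37. Changes smaller than these half-widths could not have been seen. The half-widths are not adjusted for the number of genes, so somewhat larger changes could also miss the call. PFKM, at 0.43 with a half-width of 0.34, was not called. The GAPDH and LDHA values lay near the highest reading on their arrays (13.90 to 13.97).

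At the branch where pyruvate enters mitochondria, both pyruvate dehydrogenase kinases on the list fell. PDK1, which switches off pyruvate dehydrogenase and is a known HIF target, read 8.94 in PC3-Epi and 6.89, 7.79 and 7.33 in PC3-EMT1, -EMT12 and -EMT14 (−1.60 ± 0.33, adjusted p = 0.02). PDK3 read 8.42 and 6.77, 7.20 and 7.39 (−1.30 ± 0.25, adjusted p = 0.0166). The differences by line ran from −2.05 to −1.04. The 2 dimmer PDK1 probe sets gave −1.14 each, and the other 4 of PDK3 ranged from −1.41 to −0.64.

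Other genes of these pathways were counted in the same way. Of 51 tested, 6 rose and 8 fell, shares of 11.8% and 15.7%, against 13.9% and 15.4% of all genes tested. PDK2, another kinase of pyruvate dehydrogenase, rose by 1.10 ± 0.15 (adjusted p = 0.00624), opposite to PDK1 and PDK3. Around the same enzyme, its subunits DLAT and DLD fell by 0.93 ± 0.19 and 0.84 ± 0.21, while PC, which feeds pyruvate into the citric acid cycle as oxaloacetate, rose by 0.70 ± 0.16. PYGB, a glycogen phosphorylase, rose by 1.06 ± 0.15 and PFKFB2 fell by 0.63 ± 0.16, in the direction of PFKFB3 and PFKFB4.

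Among the 15 other hypoxia targets tested, 2 rose and 3 fell. These shares of 13.3% and 20% lay near the 13.9% and 15.4% of all genes tested. LOXL2, a lysyl oxidase relative, rose by 0.81 ± 0.16 and IGFBP3, which binds insulin-like growth factors, by 0.64 ± 0.16. BHLHE41, a repressor of transcription, fell by 1.495 ± 0.29 (adjusted p = 0.0173) and TFRC, the transferrin receptor, by 0.88 ± 0.17. None of the 4 oxygen sensing partners tested passed: ARNT, the shared partner of both alpha subunits, differed by 0.16 ± 0.14, and VHL, which removes them, by −0.10 ± 0.15. The pentose phosphate enzyme RPE fell by 1.37 ± 0.28 and the transporter SLC2A12 by 1.11 ± 0.15.

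Between the mesenchymal lines and PC3-Epi, probe sets of one gene did not always move together. Of the 43 members, 28 had several probe sets, 98 probe sets in all with the single ones, and in 6 of them (EGLN1, ANKRD37, P4HA2, HK2, PFKFB4 and PGK1) a probe set lay on the other side of 0 from the brightest. In EGLN1, ANKRD37 and PFKFB4 it was a dim one, and in PGK1 a dim one lay at −0.70 and a bright one at −0.01. HK2 had 2 of middle brightness at 0.68 and 0.70, the latter called higher (adjusted p = 0.0217), against −0.06 for the brightest. P4HA2 had one at −0.54 that was called lower (adjusted p = 0.0464), against 0.13. For EPAS1 the other probe sets read at most 4.26 in the untransduced arrays, under the highest control, so that its level rests on 1 probe set. Between sh4 and Scr, 14 of the 28 had a probe set on the other side of 0 from the brightest.

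**Figure D3:**
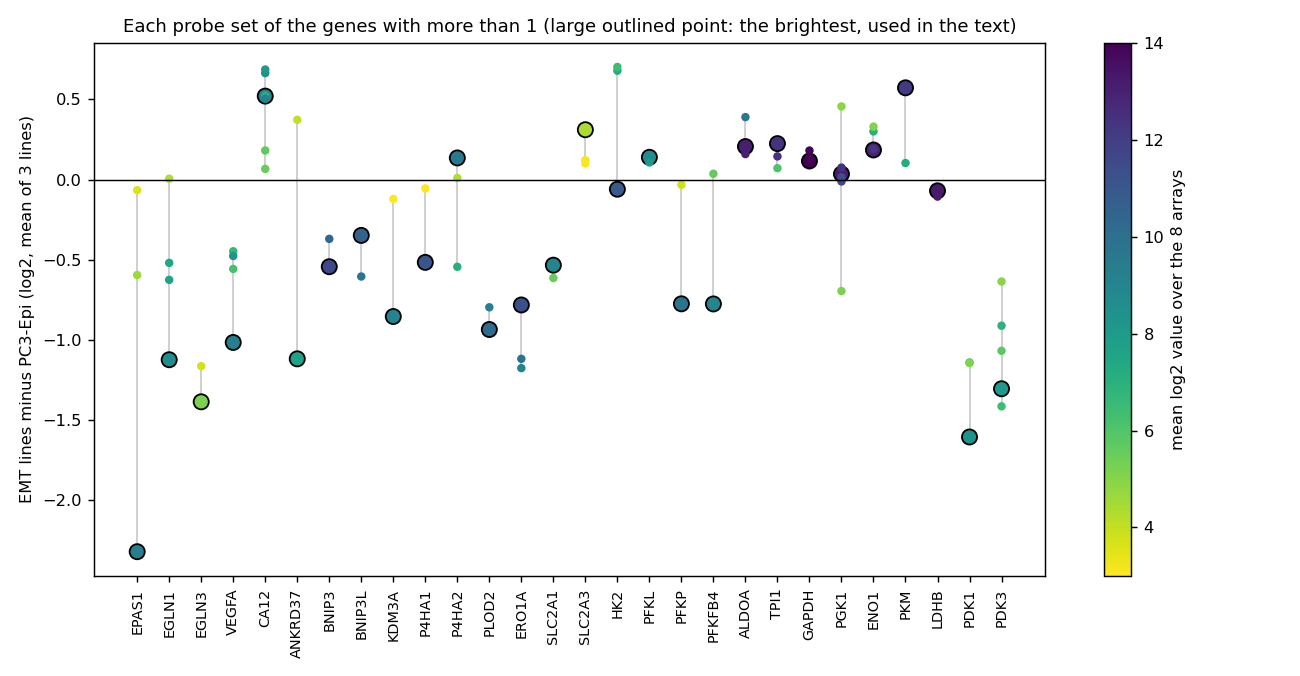
Mean difference of the 3 mesenchymal lines from PC3-Epi in log2 units (y axis) for every probe set of the 28 members with more than 1 (x axis); the colour gives the mean log2 value over the 8 arrays and the large outlined point is the brightest probe set, used for the gene. The dim probe sets of EPAS1, ANKRD37 and PFKP lie far from the bright one, and those of HK2 lie above 0.

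The sh4 arrays ask whether these genes return when ZEB1 is silenced in the mesenchymal lines. ZEB1 itself read 10.08 and 9.87 with Scr and 9.01 and 9.12 with sh4 in PC3-EMT14 and PC3-EMT1, and CDH1 read 5.89 and 5.61 with Scr and 9.75 and 9.63 with sh4. ZEB1 thus differed by −0.91 ± 0.13 (limma with the line as block, adjusted p = 0.236) and CDH1 by 3.94 ± 0.11 (adjusted p = 0.0512). With 1 residual degree of freedom, 0 of 16661 genes passed in either direction (0% and 0%), while 7.95% were higher and 7.05% lower at an unadjusted p of 0.05. Adding the untransduced arrays of both lines, 6 arrays in all, called 115 genes higher and 81 lower (0.69% and 0.486%), among them CDH1 and ZEB1. That fit leaves each difference as it was, but its error assumes that the lines differ alike in both sets, which are scaled apart.

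No member passed between sh4 and Scr in the 4 arrays, and 1 passed with 6. The 43 members had a median difference of −0.05, where all genes tested had 0.02, and 0 members reached 2-fold in both lines in either direction (0.276% and 0.132% of all genes tested were higher and lower). At an unadjusted p of 0.05, EPAS1 lay above 0 and BNIP3, P4HA1 and ALDOC below.

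EPAS1 was the member that differed most. It read 8.99 with Scr and 9.95 with sh4 in PC3-EMT14, and 9.31 and 10.02 in PC3-EMT1. Both sh4 values lay above both Scr values, by 0.84 ± 0.12 (adjusted p = 0.236 with 4 arrays, 0.0333 with 6), a 1.79-fold difference. The second EPAS1 probe set gave −0.09, at levels of 5.35 to 5.52 under the highest control of 6.00.

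The other oxygen sensing genes showed little. HIF1A read 13.40 and 13.60 in PC3-EMT14 and 13.30 and 13.23 in PC3-EMT1 with Scr and sh4, a difference of 0.07 ± 0.12. EGLN1 differed by −0.27 ± 0.14, lower in both lines, and EGLN3 by 0.29 ± 0.11 at levels of 5.71 to 6.08 around the highest control. VEGFA lay 0.24 and 0.25 above Scr in PC3-EMT14 and PC3-EMT1, a difference of 0.24 ± 0.10 (unadjusted p = 0.0774). ADM differed by 0.31 ± 0.18, most of it in PC3-EMT14 (0.61 against 0.01), and CA12 by −0.13 ± 0.10.

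Of the 8 intracellular targets, all lay below Scr after sh4 in PC3-EMT14, with a median of −0.42, where 44.7% of all genes tested did. In PC3-EMT1, 3 of the 8 lay below Scr and 5 above it, with a median of 0.03, where 48.7% of all genes tested lay below. NDRG1 read 12.19 with Scr and 11.49 with sh4 in PC3-EMT14, against 10.27 and 10.40 in PC3-EMT1. DDIT4 read 10.20 and 9.44 in PC3-EMT14 and 9.40 and 9.81 in PC3-EMT1, and BNIP3L 11.55 and 10.69, and 10.93 and 11.0. A second BNIP3L probe set lay below Scr in both lines, from −0.62 to −0.32. The difference between the lines was not tested, since each has 1 array for each shRNA. ANKRD37 lay below Scr in both lines, at −0.16 and −0.11 in PC3-EMT14 and PC3-EMT1, as did INSIG2, at −0.26 and −0.03. BNIP3 also lay below Scr in both, at −0.32 and −0.54 (−0.43 ± 0.12, unadjusted p = 0.0211, adjusted p = 0.295).

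**Figure D4:**
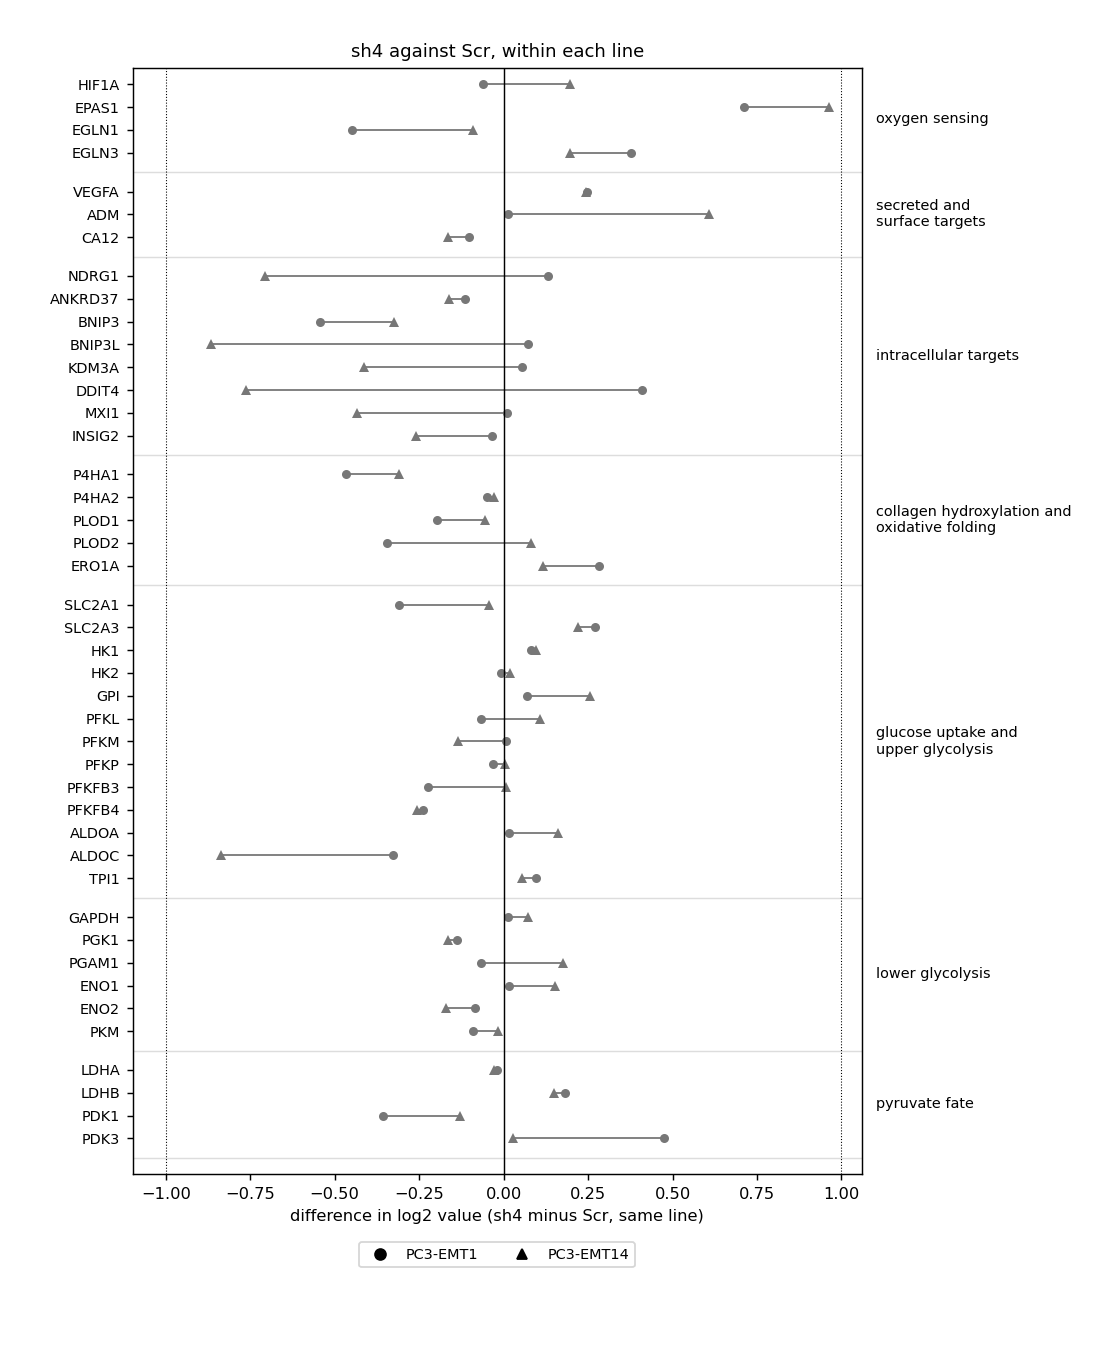
Difference in log2 value between sh4 and Scr within PC3-EMT1 and within PC3-EMT14 (x axis) for the 43 members (y axis, by role), with dotted lines at 2-fold. EPAS1 is the farthest to the right in both lines, and NDRG1, BNIP3L and DDIT4 lie on opposite sides of 0 in the 2 lines by their brightest probe sets.

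The enzymes of glycolysis were close between sh4 and Scr by the brightest probe set of each gene, with 1 exception. By their brightest probe sets, the 6 genes of lower glycolysis ranged from −0.15 (PGK1) to 0.08 (ENO1), and LDHA differed by −0.02 ± 0.10. Another bright ENO1 probe set gave −0.42, from −0.71 to −0.13 by line, and did not pass the test. The other PGK1 probe sets ranged from −0.56 to −0.21, all below Scr in both lines, and none passed. The 13 genes of glucose uptake and upper glycolysis ranged from −0.58 to 0.25. The highest of the 13 was SLC2A3, at levels of 4.99 to 5.31, under the highest control of 6.00 on all 4 transduced arrays. The lowest of the 13 was ALDOC, at 9.24 and 8.40 in PC3-EMT14 and 8.78 and 8.45 in PC3-EMT1 with Scr and sh4 (−0.58 ± 0.16, unadjusted p = 0.0245, adjusted p = 0.298). P4HA1, outside glycolysis, lay at −0.31 and −0.47 (−0.39 ± 0.11, unadjusted p = 0.0249, adjusted p = 0.298). PDK1 differed by −0.24 ± 0.12 and PDK3 by 0.25 ± 0.15, neither past the unadjusted threshold. The other enzymes of collagen and folding lay between −0.13 (PLOD1 and PLOD2) and 0.20 (ERO1A). A second PLOD2 probe set gave 0.33, on the other side of 0, and did not pass the test.

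The 2 comparisons share no array and can be set side by side. Of the 15 members that fell in the mesenchymal lines, 6 lay above 0 between sh4 and Scr (40%), where 60.1% of the 1823 genes that fell overall did. Both member counts hold EGLN3, which could only come out as lower in the mesenchymal lines. They also hold HIF1A, at 0.07 ± 0.12 between sh4 and Scr, with its lines on opposite sides of 0. The difference between these shares was not tested. The 4 that rose (CA12, PLOD1, ENO2 and PKM) all lay below 0, at −0.13 to −0.05, where 69.3% of the 1661 genes that rose did. Their standard errors were 0.10 to 0.11, none passed the test, and PKM turned to 0.04 with averaged probe sets. EPAS1 had the most negative difference of any member in the mesenchymal lines and the most positive one between sh4 and Scr. Of the 61 other pathway genes tested, 0 passed with 4 arrays and TMEM45A, a hypoxia-induced membrane protein, was lower with 6 (−1.02 ± 0.17, adjusted p = 0.0490).

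The 2 mesenchymal lines with shRNA also differed from each other. PDK3 was higher in PC3-EMT14 than in PC3-EMT1 by 0.61 without shRNA, by 1.46 with Scr and by 1.01 with sh4. NDRG1 was higher by 0.86, 1.93 and 1.09. These were the members that exceeded a difference of 0.50 in the same direction in all 3 pairs, 2 of 42, where 1.37% of the 11907 genes tested in both comparisons were higher in PC3-EMT14 by as much. No test was made of it, as each line is 1 culture for each condition.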

How the data were processed

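RNA from 8 samples of PC3-derived lines was hybridised to Affymetrix human arrays with 54675 probe sets. The deposited values are log2 intensities, which the authors made with RMA in the affy package, and software versions are not given in the sources used here. The values of untransduced and transduced arrays were on different scales, so comparisons stayed within each. Arrays have no read depth, and their number limits the precision.

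Probe sets with 1 gene symbol (41091, with 1801 others naming several) were kept, 41037 matched a RefSeq gene by Entrez ID, and the brightest stood for each gene. Genes with at least 1 array of the comparison at log2 5 were tested with limma 3.58.1 (R 4.3.3; lmFit, eBayes, Benjamini-Hochberg over all genes kept, two-sided, threshold 0.05): EMT against PC3-Epi on 4 arrays, and sh4 against Scr on 4 arrays with the line as replicate block, since both arrays of a pair come from the same line (the deviations of same-line arrays correlated at 0.48 over 16661 genes). A difference of 2-fold in every line was counted beside it. The fit was tested on simulated data.

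The members, the lists and the tests were chosen with earlier results of these data known. All members are named; of other pathway genes, those past the test with the largest difference, at most 2 higher and 2 lower for each list, with ARNT, VHL and TMEM45A chosen after their values were seen. Alternatives were other filters, averaged or single probe sets, other normalizations, an offset, other eBayes settings, other fold limits, other designs and leaving out arrays.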

Additional observations from a re-analysis of the deposited data

Results flagged for a closer look

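A few members moved by at least 0.1 (log2) in opposite directions in lines under the same comparison, and the difference between the lines was not tested. Between sh4 and Scr, NDRG1 differed by −0.71 in PC3-EMT14 and 0.13 in PC3-EMT1, and DDIT4 by −0.76 and 0.41.

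Against PC3-Epi, DDIT4 differed by 0.15 in PC3-EMT1, −0.99 in PC3-EMT12 and −0.53 in PC3-EMT14. P4HA2 differed by 0.37, −0.16 and 0.19 in the same order, and ALDOC by −0.18, 0.17 and −0.16.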

How the results depend on the processing

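Between the mesenchymal lines and PC3-Epi, 12 of the 19 called members passed the threshold under every alternative that gave them a value, and none of the 19 changed sign, single probe sets aside in both counts. The 4 members called higher became 2 with cyclic loess and 2 to 3 when 1 line was left out, and the 15 called lower ranged from 11 with averaged probe sets to 16. The 6 members 2-fold lower in every line became 2 with averaged probe sets, 3 with 32 added on the linear scale, 15 at a 1.5-fold limit and 2 at a 3-fold limit, and 2 members were higher at the 1.5-fold limit. At 2-fold, the members higher in every line numbered 0 to 1 when 1 line was left out. Over all genes, leaving out PC3-EMT14 gave 737 higher and 1107 lower in place of 1661 and 1835. By single probe sets, HK2 turned from −0.06 to 0.70 and P4HA2 from 0.13 to −0.54.

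Between sh4 and Scr, no member was called without the replicate block (0 higher and 0 lower; 1 gene higher over all genes), and 1 member, EPAS1, was called higher with 6 arrays and the block. At a 1.5-fold limit 1 member was higher in both lines. Over all genes, the count of 0 higher and 0 lower became 36 and 15 with arrays centred on their medians, 36 and 14 with quantile normalization, 35 and 14 with cyclic loess, 13 and 2 with averaged probe sets, and 115 and 81 with 6 arrays. A filter at log2 7 and the offset of 32 each gave 4 higher, and eBayes with a trend gave 2. Among these, no member was called except EPAS1. The median over members ranged from −0.11 to 0.10 when single arrays were left out. What limits the sizes is 1 array of PC3-Epi, EGLN3 readings under the highest control, and GAPDH and LDHA readings near the top of the scale.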
